A study of Cricetulus griseus with 19 samples.

Results

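Levels of 5 genes of protein glycosylation, Mgat1, Manea, Slc35a3, Slc35c2 and Gmds, were followed in 19 RNA sequencing libraries of Paradaux cells, an engineered derivative of the Chinese hamster ovary line CHO-K1. The genes were taken by symbol. Each matched 1 of the 46718 transcript targets in every file, and all 5 passed the filter on low counts, which left 28555 targets for testing. The libraries comprised 1 of the parental line, 4 of cultures with uncontrolled growth, 7 under negative feedback and 7 under paradoxical feedback. All groups share the CHO-K1 background and were grown for 2 days below 80% confluence before harvest. The target of the inserted construct is present in every file. The sources used here give no agents, doses or duration of the long-term culture. The labels number the cultures without saying whether each was propagated on its own, so a p-value reflects variation among these samples that may be technical. Total estimated counts ran from 9.91 to 13.2 M per library. Of the listed cell type markers, 0 of 5 mesenchymal, 0 of 4 epithelial and 0 of 3 blood or endothelial genes matched a named target, so the cell identity could not be checked in that way. In bulk RNA, fewer cells of a kind and less RNA per cell cannot be told apart.

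N-glycans are assembled on a lipid carrier, transferred to nascent proteins in the endoplasmic reticulum, and trimmed there and in the Golgi apparatus. In the Golgi, Mgat1 adds the N-acetylglucosamine that opens the path to hybrid and complex glycans, using UDP-N-acetylglucosamine that Slc35a3 is known to carry across the membrane. Manea, an endomannosidase, removes glucose-capped mannose from glycans that escaped trimming in the endoplasmic reticulum. Gmds performs the opening step of GDP-fucose synthesis from GDP-mannose, and Slc35c2 is a Golgi protein of the nucleotide sugar transporter family that has been linked to fucosylation. CHO cells are the main host for recombinant glycoproteins, and mutants of Mgat1 and Gmds are classic CHO glycosylation mutants.

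The values refer to transcript targets, not to whole genes. The Mgat1 target is 1344 nt long, and those of Manea, Slc35a3, Slc35c2 and Gmds are 3260, 1494, 1523 and 1606 nt long. Whether any of these records holds coding sequence alone was not checked. Estimated counts of Manea, Slc35c2 and Gmds were whole numbers in all 19 libraries. Those of Mgat1 and Slc35a3 were not, so reads were divided between these targets and similar transcripts. A low value of Mgat1 or Slc35a3 therefore does not show that the gene was weakly expressed.

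The percentage of counts that fell on targets under 800 nt differed between libraries, and Mgat1, Manea and Slc35a3 were highest where it was lowest. Slc35c2 did not follow it, being highest in paradoxical feedback cultures at intermediate percentages. Uncontrolled growth gave 12.2 to 13.4%, and the parental library 11.8%. Paradoxical feedback gave 8.50 to 12.4%. Under negative feedback, cultures 1 and 2 had 14.1 and 13.3%, whereas the other 5 had only 6.12 to 7.22%. Because negative feedback cultures 3 to 7 stood apart from cultures 1 and 2, results of that group are given with and without them. No label gives this division, which was read from these same libraries. The p-values of fits that use it are therefore a description. Levels are given in CPM, the counts on a target relative to the library total after TMM scaling, and levels of different genes are compared in TPM, which accounts for transcript length. Log2 fold changes carry the standard error of the fit. The call of a target required edgeR's quasi-likelihood test to give an adjusted p below 0.05, adjusted over all tested targets.

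Per length, Slc35c2 and Gmds were the most abundant of the 5 targets in every group. By mean level Manea, Mgat1 and Slc35a3 followed in that order in uncontrolled, parental and paradoxical feedback cultures. In uncontrolled cultures Slc35c2 stood at 46.8 ± 4.67 TPM and Gmds at 40.1 ± 8.84 TPM (SD, n = 4), levels whose ranges overlapped. Manea followed at 1.88 ± 0.222 TPM and Mgat1 at 0.150 ± 0.151 TPM (SD, n = 4), while Slc35a3 was at 0 in all 4. The parental library had the same order, with 37.1 TPM for Slc35c2, 30.1 for Gmds, 3.72 for Manea, 0.296 for Mgat1 and 0 for Slc35a3. Under paradoxical feedback the levels were 61.3 ± 5.52, 23.4 ± 4.28, 3.11 ± 1.43, 2.62 ± 0.786 and 0.685 ± 1.20 TPM in that order (SD, n = 7). There Slc35c2 and Gmds no longer overlapped, while Manea and Mgat1 did. In negative feedback cultures 3 to 7, Slc35a3 (5.45 to 18.1 TPM), Mgat1 (8.94 to 12.5 TPM) and Manea (8.18 to 11.9 TPM) reached overlapping levels, below Gmds (23.6 to 33.8 TPM) and Slc35c2 (66.1 to 69.3 TPM). By mean CPM over all libraries, Slc35c2 lay at the 86.7th percentile of tested targets, Gmds at the 78.7th, Manea at the 60.0th, Mgat1 at the 40.1th and Slc35a3 at the 39.0th.

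**Figure D1:**
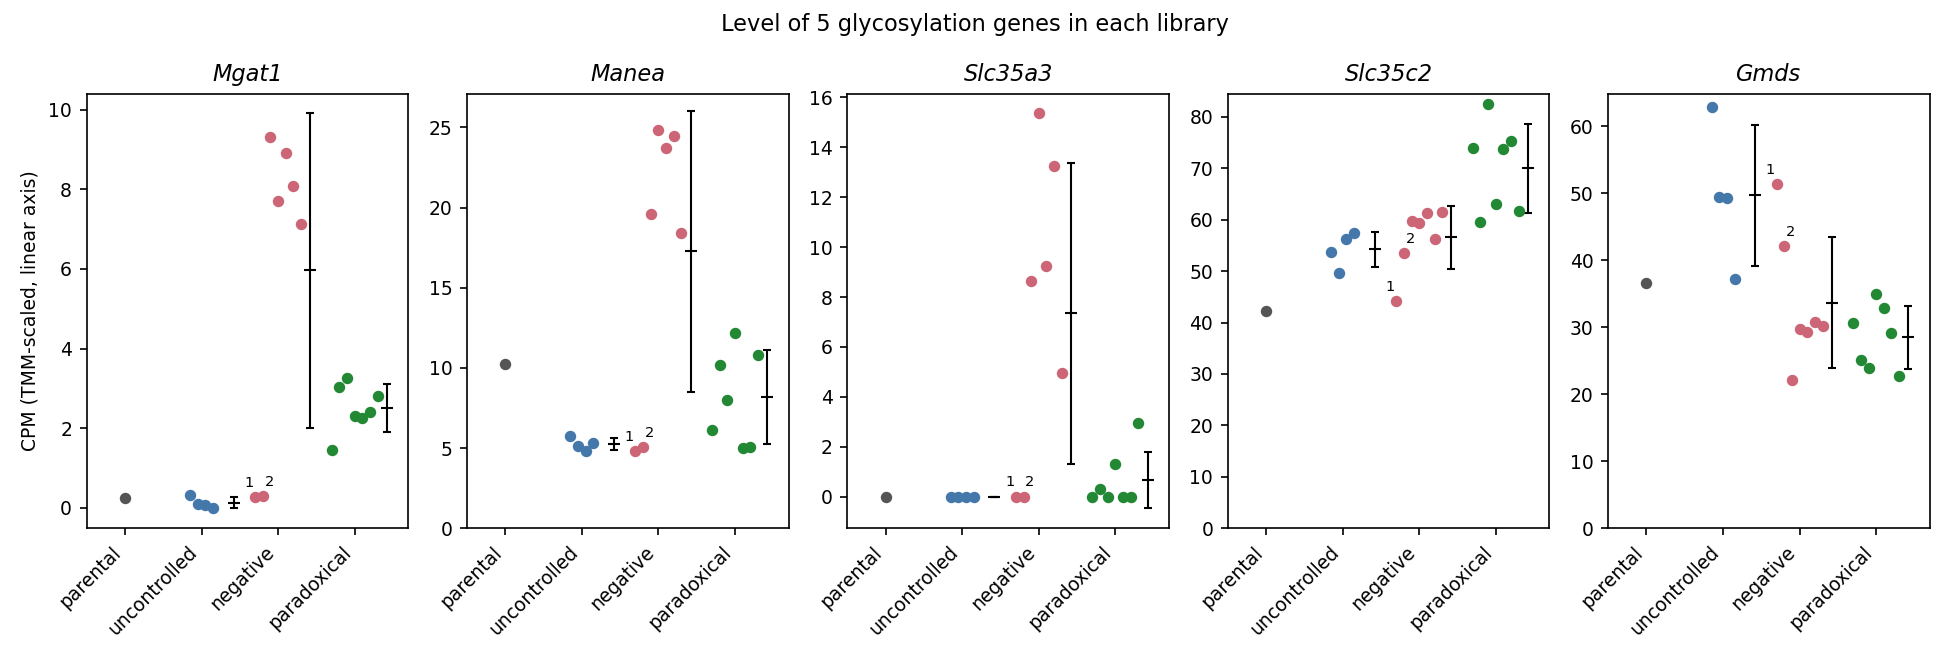
CPM (linear axis) of each gene in the 19 libraries, with 1 point per library, grouped by culture condition. Black bars show mean ± SD for groups with more than 1 library, and the digits 1 and 2 mark negative feedback cultures 1 and 2. For Mgat1, Manea and Slc35a3 these 2 cultures lie with the uncontrolled cultures and cultures 3 to 7 lie above them, whereas Gmds is lower in cultures 3 to 7 (22.1 to 30.8 CPM) than in uncontrolled cultures (37.1 to 62.8 CPM).

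Mgat1, the transferase that commits N-glycans to the hybrid and complex types, was higher in both feedback groups than in uncontrolled cultures. It was at 0.329, 0.0948, 0.0791 and 0 CPM in uncontrolled cultures 1 to 4, which corresponds to 0 to 4.18 estimated counts, and at 0.252 CPM in the parental library. Under paradoxical feedback, cultures 1 to 7 were at 1.45, 3.03, 3.26, 2.32, 2.25, 2.40 and 2.81 CPM. All 7 lay above all 4 uncontrolled cultures and above the parental library. Under negative feedback, cultures 1 and 2 were at 0.268 and 0.292 CPM and cultures 3 to 7 at 9.32, 7.72, 8.92, 8.07 and 7.13 CPM. Cultures 1 and 2 thus fell within the range of uncontrolled cultures, and cultures 3 to 7 exceeded every other library in the series.

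The log2 fold change of Mgat1 against uncontrolled cultures was 4.20 ± 1.05 under paradoxical feedback (edgeR adjusted p = 0.0279) and 5.45 ± 1.12 under negative feedback (edgeR adjusted p = 0.0236). With so few counts in uncontrolled cultures, the target passed the filter only through feedback cultures, where it was higher. Summed over cultures, 204 rounded counts under paradoxical feedback and 503 under negative feedback stood against 6 in uncontrolled cultures. The ratios per library size were 19.6 (8.87 to 54.2) and 48.3 (22.01 to 132), with exact 95% intervals that cover counting error only. Neither call held when uncontrolled culture 1, 2, 3 or 4 was left out, with edgeR adjusted p from 0.0591 to 0.0904 for paradoxical and from 0.0525 to 0.0774 for negative feedback, at log2 fold changes of 3.81 to 5.20 and 5.06 to 6.45. Over all targets, those fits called 127 to 644 for paradoxical and 7 to 15 for negative feedback, against 1835 and 2787 with all cultures. The loss was therefore not particular to Mgat1. Without negative feedback cultures 3 to 7, the log2 fold change of that group was 1.09 ± 0.89 (edgeR adjusted p = 1), and that of paradoxical feedback stayed at 4.21 ± 0.80 (edgeR adjusted p = 0.00361). With the share of counts on short targets as a covariate, the value under paradoxical feedback was 2.96 ± 0.69 (edgeR adjusted p = 0.0213) and that under negative feedback 2.01 ± 0.79 (edgeR adjusted p = 0.759). Over all targets, the covariate fit called 1654 for paradoxical and 5 for negative feedback. Without cultures 3 to 7 the calls were 4926 and 13 in that order.

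Manea, the endomannosidase of the Golgi, was called higher under negative feedback, where the 7 cultures divided into separate levels. Uncontrolled cultures 1 to 4 were closely spaced at 5.76, 5.12, 4.82 and 5.33 CPM, and the parental library was at 10.2 CPM. The first 2 cultures under negative feedback had 4.82 and 5.06 CPM, and cultures 3 to 7 had 19.6, 24.9, 23.7, 24.5 and 18.4 CPM. The former lay at the level of uncontrolled cultures and the latter above every other library. Under paradoxical feedback, cultures 1 to 7 were at 6.14, 10.2, 7.98, 12.2, 4.99, 5.08 and 10.8 CPM, a range that overlapped both the uncontrolled cultures and the parental value.

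The log2 fold change of Manea was 1.72 ± 0.47 for negative feedback against uncontrolled growth (edgeR adjusted p = 0.0321) and 0.64 ± 0.44 for paradoxical feedback (edgeR adjusted p = 0.387). The call under negative feedback did not hold without uncontrolled culture 1, 2, 3 or 4 or without negative feedback culture 3, 4, 5, 6 or 7, at edgeR adjusted p from 0.0541 to 0.0893 and log2 fold changes of 1.61 to 1.76. Calls over all targets fell from 2787 to between 7 and 15 in the former fits and to between 965 and 1477 in the latter. Without cultures 3 to 7 together the log2 fold change was -0.09 ± 0.43 (edgeR adjusted p = 1), and with the share on short targets as a covariate 0.06 ± 0.23 (edgeR adjusted p = 1). These fits called 13 and 5 targets in all, so the loss was not particular to Manea.

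Slc35a3, the carrier of the sugar donor that Mgat1 uses, was detected in a minority of libraries. It was at 0 in the parental library, in all 4 uncontrolled cultures, in negative feedback cultures 1 and 2 and in paradoxical feedback cultures 1, 3, 5 and 6, which makes 11 of 19 libraries. Negative feedback cultures 3 to 7 were at 8.65, 15.4, 9.25, 13.3 and 4.94 CPM, from 63.2 to 199 estimated counts. Paradoxical feedback cultures 2, 4 and 7 were at 0.328, 1.31 and 2.97 CPM, from 3.84 to 37.5 estimated counts. The target was thus present in 5 of 7 cultures under negative and 3 of 7 under paradoxical feedback. A count of 0 allows up to 3 counts, or 0.232 to 0.294 CPM depending on the library, and these limits cover counting error only. They do not cover reads of this target that were assigned to similar transcripts.

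Against that floor of 3 counts per library, the mean under negative feedback was at least 28.8-fold higher than in uncontrolled cultures, within counting error only. EdgeR called the target (adjusted p = 0.0495), a test of its fitted fold change and not of this bound. Slc35a3 passed the filter on low counts only through feedback cultures in which it was high. Its call against a group at 0 is therefore a description and no independent support. The bound was between 23.5 and 33.6 when any single culture of the 2 groups was left out. Under paradoxical feedback the mean was at least 2.58-fold higher by the same floor, and at least 1.07-fold higher without culture 7. The target was not called there (edgeR adjusted p = 0.150). The call under negative feedback stood at the edge of the threshold. It was lost without any of the 4 uncontrolled cultures, without negative feedback culture 3, 4, 5, 6 or 7, and without paradoxical feedback culture 1, 2, 3, 4, 5 or 6, at edgeR adjusted p from 0.0507 to 0.112. Calls over all targets were 7 to 15, 965 to 1477 and 2322 to 2648 in these fits, against 2787 with all cultures. Without negative feedback cultures 3 to 7 together, both groups were at 0, and with the share on short targets as a covariate the call was lost (edgeR adjusted p = 1). The covariate fit called 5 targets in all, so that loss was not particular to Slc35a3.

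**Figure D2:**
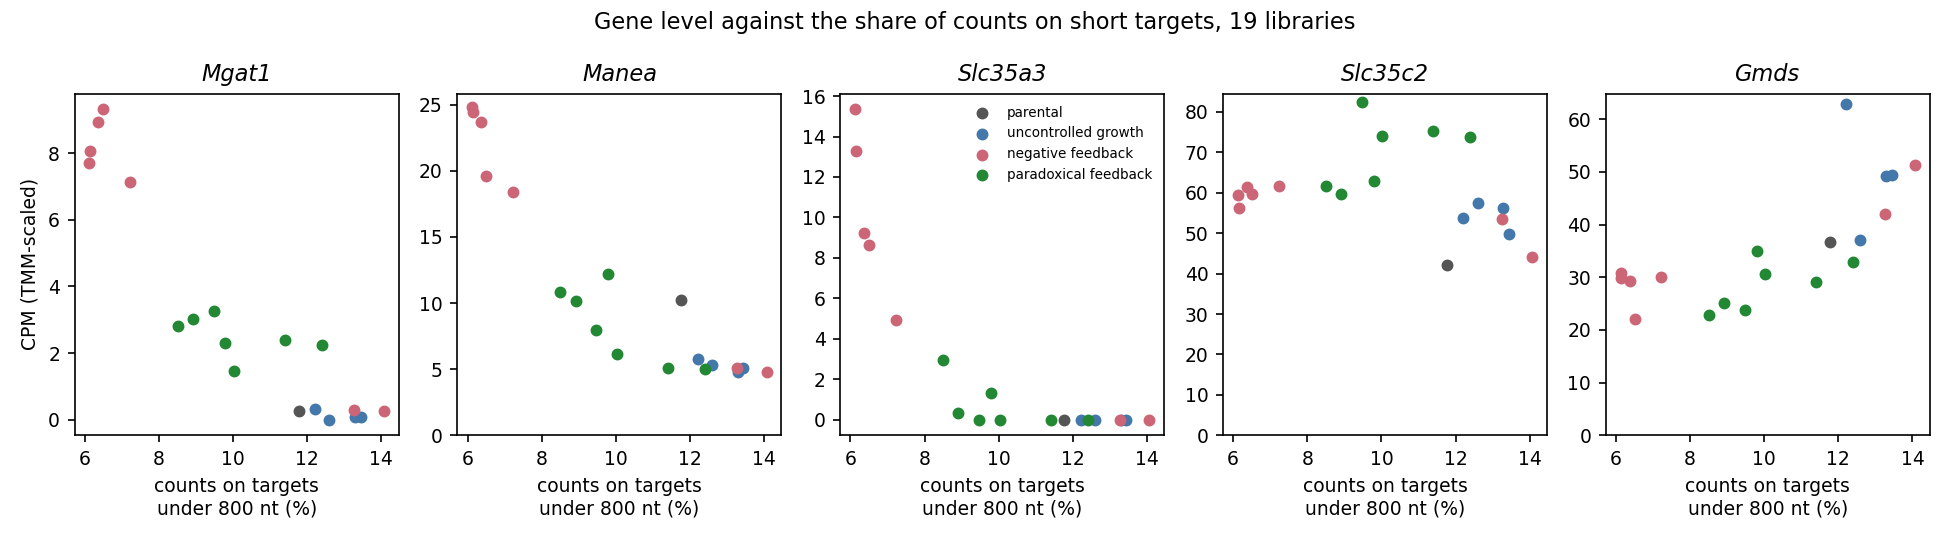
CPM of each gene (vertical axes, linear) against the share of counts on targets under 800 nt (horizontal axes, percent), with 1 point per library and colours for the culture conditions. The 5 libraries with shares of 6.12 to 7.22% are negative feedback cultures 3 to 7, which hold the 5 highest values of Mgat1, Manea and Slc35a3, and the libraries above 12% include all uncontrolled cultures.

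Gmds, which starts GDP-fucose synthesis, was lower under paradoxical feedback. Uncontrolled cultures 1 to 4 were at 62.8, 49.5, 49.3 and 37.1 CPM, and the parental library was at 36.6 CPM. Paradoxical feedback cultures 1 to 7 were at 30.6, 25.2, 23.8, 34.9, 32.8, 29.1 and 22.8 CPM. In CPM all 7 lay below all 4 uncontrolled cultures and below the parental library. In TPM they did not, since paradoxical feedback culture 4 (32.3) lay above uncontrolled culture 4 (31.6) and the parental library (30.1). Negative feedback cultures 1 and 2 were at 51.3 and 42.0 CPM, within the uncontrolled range, and cultures 3 to 7 at 22.1, 29.8, 29.2, 30.8 and 30.1 CPM, below it.

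Gmds fell by 0.80 ± 0.21 on the log2 scale under paradoxical feedback (edgeR adjusted p = 0.0329), from 49.7 ± 10.5 CPM (SD, n = 4) to 28.5 ± 4.66 CPM (SD, n = 7). The difference of negative feedback from uncontrolled cultures, -0.56 ± 0.21, missed the threshold (edgeR adjusted p = 0.0885). The call under paradoxical feedback was lost without uncontrolled culture 1, 2 or 3 or paradoxical feedback culture 1, 3, 6 or 7, with edgeR adjusted p from 0.0503 to 0.123 and log2 fold changes of -0.82 to -0.67. Calls over all targets were 127 to 644 in the former fits and 1005 to 1294 in the latter, against 1835 with all cultures. Under negative feedback a call appeared without culture 1 (-0.70, edgeR adjusted p = 0.0160) or culture 2 (-0.64, edgeR adjusted p = 0.0442), where 24.4 and 22.3% of all targets were called, against 9.76% with all cultures. Without cultures 3 to 7 the value was -0.09 ± 0.23. With the share on short targets as a covariate, the value under paradoxical feedback was -0.57 ± 0.16 (edgeR adjusted p = 0.0444).

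Slc35c2, the transporter-family protein linked to fucosylation, had the smallest relative spread of the 5 genes in CPM. Uncontrolled cultures 1 to 4 were at 53.8, 49.7, 56.2 and 57.4 CPM, and the parental library was the lowest of all at 42.2 CPM. Paradoxical feedback cultures 1 to 7 were at 74.0, 59.6, 82.5, 63.0, 73.7, 75.4 and 61.7 CPM, all above the uncontrolled cultures. Negative feedback cultures 1 to 7 were at 44.1, 53.5, 59.7, 59.3, 61.3, 56.3 and 61.5 CPM, overlapping the uncontrolled range. The coefficient of variation in CPM was 6.31, 10.9 and 12.3% in uncontrolled, negative and paradoxical feedback cultures. In TPM under negative feedback, Gmds (31.6 ± 4.19) had a smaller relative spread than Slc35c2 (59.5 ± 14.1, SD, n = 7).

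The log2 fold change of Slc35c2 was 0.37 ± 0.12 under paradoxical feedback (edgeR adjusted p = 0.0745) and 0.06 ± 0.12 under negative feedback (edgeR adjusted p = 0.762), and neither was called. The value under paradoxical feedback passed the threshold in 5 of 31 alternatives, among them DESeq2 (adjusted p = 0.0216), the edgeR fit of the compared groups alone (adjusted p = 0.0331) and the fit without negative feedback culture 1 (edgeR adjusted p = 0.0355). In these, 19, 22.4 and 11.3% of all targets were called, against 6.43% in the main fit. Under negative feedback the direction depended on the scaling, since library size alone gave -0.01. In TPM, negative feedback cultures 3 to 7 (66.1 to 69.3) lay above all uncontrolled cultures (40.8 to 52.1), whereas in CPM they overlapped. The units also differed for Gmds, where those cultures lay below uncontrolled cultures in CPM but at 23.6 to 33.8 against 31.6 to 52.5 TPM.

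**Figure D3:**
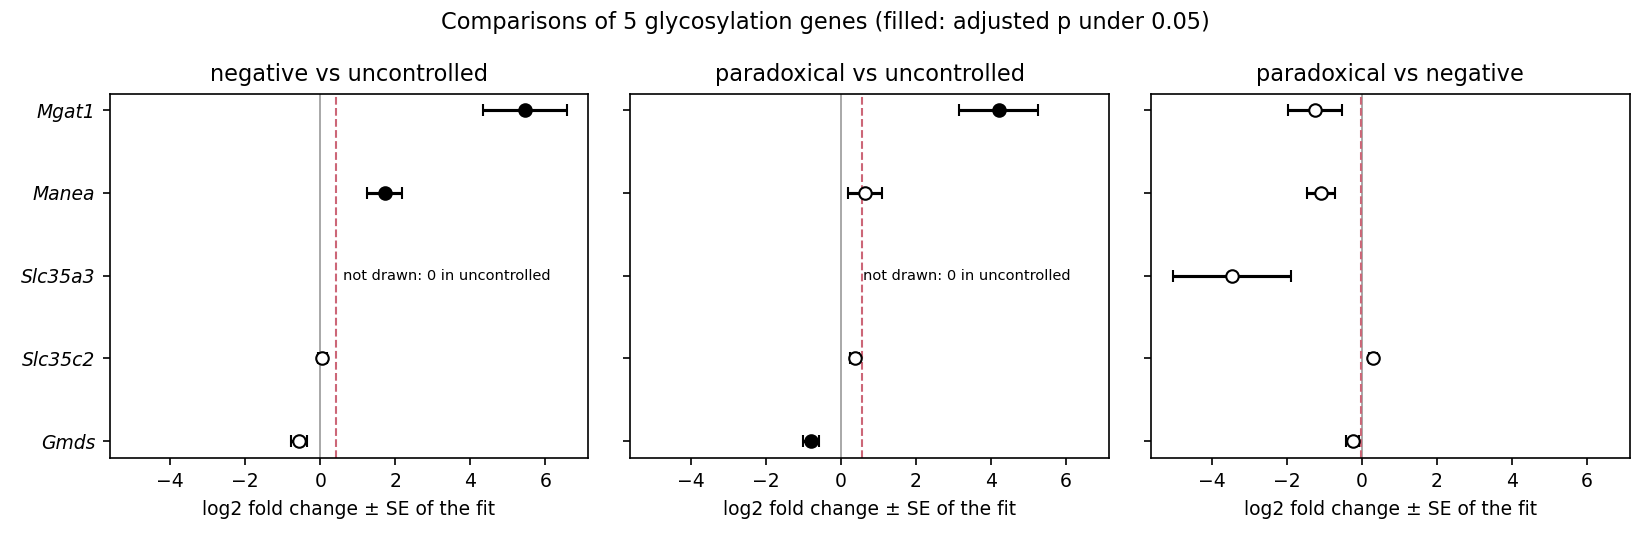
Log2 fold change with the standard error of the fit for each gene in the 3 comparisons, with filled points where the adjusted p was under 0.05. The dashed line marks the median over 283 named targets (0.43, 0.55 and -0.005), and Slc35a3 is not drawn against uncontrolled cultures, where it was at 0. Mgat1 is filled in both comparisons with uncontrolled cultures, Manea in the first and Gmds in the second.

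Counted over the 5 genes, negative feedback against uncontrolled growth gave 3 calls, all higher, where 9.76% of all tested targets were called, 8.65% higher and 1.11% lower. That balance depended on the tool: the higher share of called targets was 88.6% by edgeR, 75.8% by DESeq2, 32.5% by limma-voom and 63.8 and 66.3% by limma on TPM. Limma-voom called Mgat1, Slc35a3 and Gmds (lower), and DESeq2 these and Manea, where 17.6 and 25.1% of all targets were called. Of the 283 targets with a symbol, 28.3% were called, 27.9% higher. No gene had CPM ranges that did not overlap between these groups, against 3.87% of all targets. Paradoxical feedback against uncontrolled growth gave 2 calls, Mgat1 higher and Gmds lower, where 6.43% of all targets were called, 4.93% higher and 1.50% lower, and 20.8% of named targets, 19.8% higher. There 3 of 5 genes had ranges that did not overlap, Mgat1 and Slc35c2 higher and Gmds lower, against 16.2% of all targets (7.94% higher and 8.29% lower in CPM). The higher share of called targets was 76.7% by edgeR, 63.9% by DESeq2, 41.8% by limma-voom, 63.5% without TMM, 57.4% with the length trend removed and 43.5 and 49.1% by limma on TPM. At an unadjusted p under 0.05 by edgeR there were 4 of 5 genes in each of these comparisons, against 31.2 and 25.8% of all targets. The median log2 fold change of the 5 genes was 1.72 and 0.64 in these comparisons, against 0.04 and 0.02 over all targets and 0.43 and 0.55 over named ones. Both comparisons use the same 4 uncontrolled cultures. The genes were proposed with results of these libraries in view, so their counts are a description.

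Paradoxical and negative feedback were compared directly to ask whether the genes differ between the 2 kinds of control, and edgeR called none of the 5, where 0.270% of all targets (0.165% higher and 0.105% lower) and 0.353% of named ones were called. At an unadjusted p under 0.05 there were 3, against 17.6% of all targets, namely Manea, Slc35a3 and Slc35c2. DESeq2 called 1 (Manea) and limma-voom 0, where 7.17 and 1.04% of all targets were called. The log2 fold changes were -1.25 ± 0.72 for Mgat1, -1.07 ± 0.37 for Manea, -3.45 ± 1.58 for Slc35a3, 0.31 ± 0.10 for Slc35c2 and -0.24 ± 0.18 for Gmds. Their edgeR adjusted p-values ran from 0.140 to 0.579, and no gene had ranges that did not overlap (0.564% of all targets had). The means join unlike negative feedback cultures. Against cultures 1 and 2 alone, the values for Mgat1 and Manea were above 0, at 3.12 ± 1.02 and 0.74 ± 0.41 without a call, and Slc35c2 (0.53 ± 0.14, edgeR adjusted p = 0.0412) and Gmds (-0.70 ± 0.20, edgeR adjusted p = 0.0497) were called. That fit called 8.99% of all targets. Slc35a3 had 0 counts in cultures 1 and 2, and against the floor of 3 counts its paradoxical feedback mean was at least 2.35-fold higher, a bound that was 0.977 without paradoxical feedback culture 7. Against cultures 3 to 7 alone, Mgat1 fell by 1.71 ± 0.48 (edgeR adjusted p = 0.0199) and Manea by 1.43 ± 0.24 (edgeR adjusted p = 0.000805), while Gmds was at 0.01 ± 0.15. That fit called 20.9% of all targets. Cultures 3 to 7 hold the highest Mgat1 and Manea values of the series and were set apart from these same data. The direction of both falls was thus fixed by the division, and their p-values are no independent support. Without negative feedback culture 1, Manea was called at -1.24 (edgeR adjusted p = 0.0484), where 3.47% of all targets were called.

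Cultures under paradoxical feedback also differed among themselves. The 3 cultures in which Slc35a3 was detected, 2, 4 and 7, held the 3 highest Manea values of that group, at 10.2 to 12.2 CPM, and 3 lowest Slc35c2 values, at 59.6 to 63.0 CPM. Their shares of counts on short targets were 8.91, 9.79 and 8.50%, against 9.48 to 12.4% in cultures 1, 3, 5 and 6. This was noticed after the values were seen and was not tested. Mgat1 did not follow that division, since its highest value was in culture 3 and its lowest in culture 1.

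Patterns most like each gene were sought among the other 282 named tested targets, by Pearson's r of log2 CPM over the 18 long-term cultures. These cultures fall into separate sets and share depth and length effects, so r is a description. Mgat1 was most like Gna11 (0.97), Slc31a1 (0.96) and Adss2 (0.95), which encode a G protein alpha subunit, a copper transporter and an enzyme of AMP synthesis. Manea was most like Gna13, another G protein alpha subunit, Slc35a3 and Edem1, each at 0.97, and Slc35a3 was most like Manea (0.97), the aryl hydrocarbon receptor Ahr (0.94) and Edem1 (0.94). Slc35a3 was at 0 in most of the 18 cultures, including 4 of 7 under paradoxical feedback, so its r rests largely on the others. Slc35c2 was most like Chcr2 (0.87), the heterochromatin protein Cbx3 (0.87) and the chaperone cofactor Stip1 (0.86). Gmds was most like Creld2 (0.92), Hspa5 (0.92) and Slc3a2 (0.89), of which the first 2 encode proteins of the endoplasmic reticulum and the third an amino acid transporter subunit. Within the 7 paradoxical feedback cultures alone, r was 0.83 for Manea with Slc35a3, 0.92 for Manea with Edem1, and 0.89 and 0.85 for Gmds with Creld2 and Hspa5. For Mgat1 it was 0.56 with Gna11 and -0.25 with Slc31a1. The median r over all named targets was 0.54 for Mgat1, 0.35 for Manea, 0.33 for Slc35a3, 0.28 for Slc35c2 and -0.43 for Gmds. Gna11, Ahr and Chcr2 were targets with shared reads, as were Mgat1 and Slc35a3.

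The wider glycosylation pathway was followed through 10 gene lists. Of their genes, 38 matched a target by symbol and 34 passed the filter, including the 5 above. Among the other 29, edgeR called 6 higher and none lower under negative feedback, 1 higher and none lower under paradoxical feedback, and none between both feedback groups. The shares called over all targets were 9.76, 6.43 and 0.270%, and over named targets 28.3, 20.8 and 0.353%. Their median log2 fold changes were 0.29, 0.23 and 0.01. At an unadjusted p under 0.05 by edgeR there were 17, 6 and 9, against 31.2, 25.8 and 17.6% of all targets. DESeq2 called 14, 5 and 5, against 25.1, 19 and 7.17% of all targets. Limma-voom called 8, 1 and 1, against 17.6, 9.07 and 1.04%. Under negative feedback those of DESeq2 were 10 higher and 4 lower and those of limma-voom 4 higher and 4 lower, the lower ones being Cope, B3gat3, Dpm3 and Gfus with both. None of the 6 was called without uncontrolled culture 1, 2, 3 or 4 or without negative feedback cultures 3 to 7 together, and without negative feedback culture 4 only Edem1 was. Those fits called 7 to 15, 13 and 965 targets in all, against 2787. Without negative feedback culture 1 or 2 the number of pathway genes called was 16 and 13, where 24.4 and 22.3% of all targets were called. With the share on short targets as a covariate it was 0, where 5 of 28555 targets were called. Under paradoxical feedback it was 4 without negative feedback culture 1, and between both feedback groups 3 without that culture and 2 without culture 2. The shares of all targets called there were 11.3, 3.47 and 3.04%.

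In the Golgi N-glycan list, 5 of 9 tested targets were called higher under negative feedback, Mgat1 and Manea among them, and none lower. Apart from these 2 genes it was 3 of 7, where 27.9% of named and 8.65% of all targets were called higher. The 3 were galactosyltransferases: B4galt1, which extends N-glycans, at 2.87 ± 0.72, and B4galt5 and B4galt6, known as lactosylceramide synthases, at 3.37 ± 0.86 and 2.23 ± 0.56 (edgeR adjusted p from 0.0253 to 0.0262). Uncontrolled cultures had 1.03 ± 0.368 CPM of B4galt1 (SD, n = 4), negative feedback cultures 1 and 2 had 0.625 to 0.973 CPM, and cultures 3 to 7 had 7.68 to 11.3 CPM. B4galt5 was at 1.06 ± 1.10, 0.973 to 0.982 and 13.01 to 16.1 CPM, and B4galt6 at 1.20 ± 0.335, 1.16 to 1.56 and 6.04 to 8.64 CPM in the same order. The rises of all 3 thus lay in cultures 3 to 7, as for Mgat1. B4galt2, a further galactosyltransferase with shared reads, was at 2.65 ± 1.03 under negative and 2.91 ± 1.04 under paradoxical feedback without a call (edgeR adjusted p = 0.0986 and 0.0940). It was at 2.60 ± 1.63 CPM in uncontrolled and 19.6 ± 1.86 CPM in paradoxical feedback cultures (SD, n = 4 and n = 7). Under paradoxical feedback Mgat1 was the only 1 of the 9 called, where 20.8% of named and 6.43% of all targets were called.

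Nucleotide sugar transporters other than Slc35a3 and Slc35c2 had no call by edgeR in any comparison, while Slc35b4 was called under negative feedback in 4 of 31 alternatives, including DESeq2 and the fits without negative feedback culture 1 or 2. Slc35a1, the CMP-sialic acid transporter, was level at 33.3 ± 1.51 CPM in uncontrolled, 34.5 ± 3.67 under negative and 33.7 ± 3.57 under paradoxical feedback (SD, n = 4, 7 and 7). Its log2 fold changes were 0.05 ± 0.13 and 0.02 ± 0.13. Slc35a2, the UDP-galactose transporter with shared reads, was at 0.73 ± 0.36 and 0.94 ± 0.37 (edgeR adjusted p = 0.178 and 0.122). Slc35b4, which carries UDP-xylose and UDP-N-acetylglucosamine, was at 0.74 ± 0.29 and 0.39 ± 0.29 (edgeR adjusted p = 0.101 and 0.419), with 8.03 to 9.93 CPM in negative feedback cultures 1 and 2 and 20.9 to 23.9 CPM in cultures 3 to 7.

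Gfus, which completes GDP-fucose synthesis after Gmds, was not called but had log2 fold changes below 0 in both feedback groups. It was at -0.93 ± 0.31 under negative (edgeR adjusted p = 0.0599) and -0.52 ± 0.31 under paradoxical feedback (edgeR adjusted p = 0.296), with shared reads. Levels were 60.5 ± 17.6 CPM in uncontrolled cultures (SD, n = 4), 45.2 to 63.6 CPM in the first 2 cultures under negative feedback, 16.0 to 26.4 CPM in the other 5, and 42.1 ± 8.11 CPM under paradoxical feedback (SD, n = 7). Of the enzymes for other nucleotide sugars, Gne of sialic acid synthesis was at 0.29 ± 0.17 and 0.32 ± 0.17 and Ugp2 of UDP-glucose synthesis at 0.22 ± 0.13 and 0.16 ± 0.13, without a call.

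**Figure D4:**
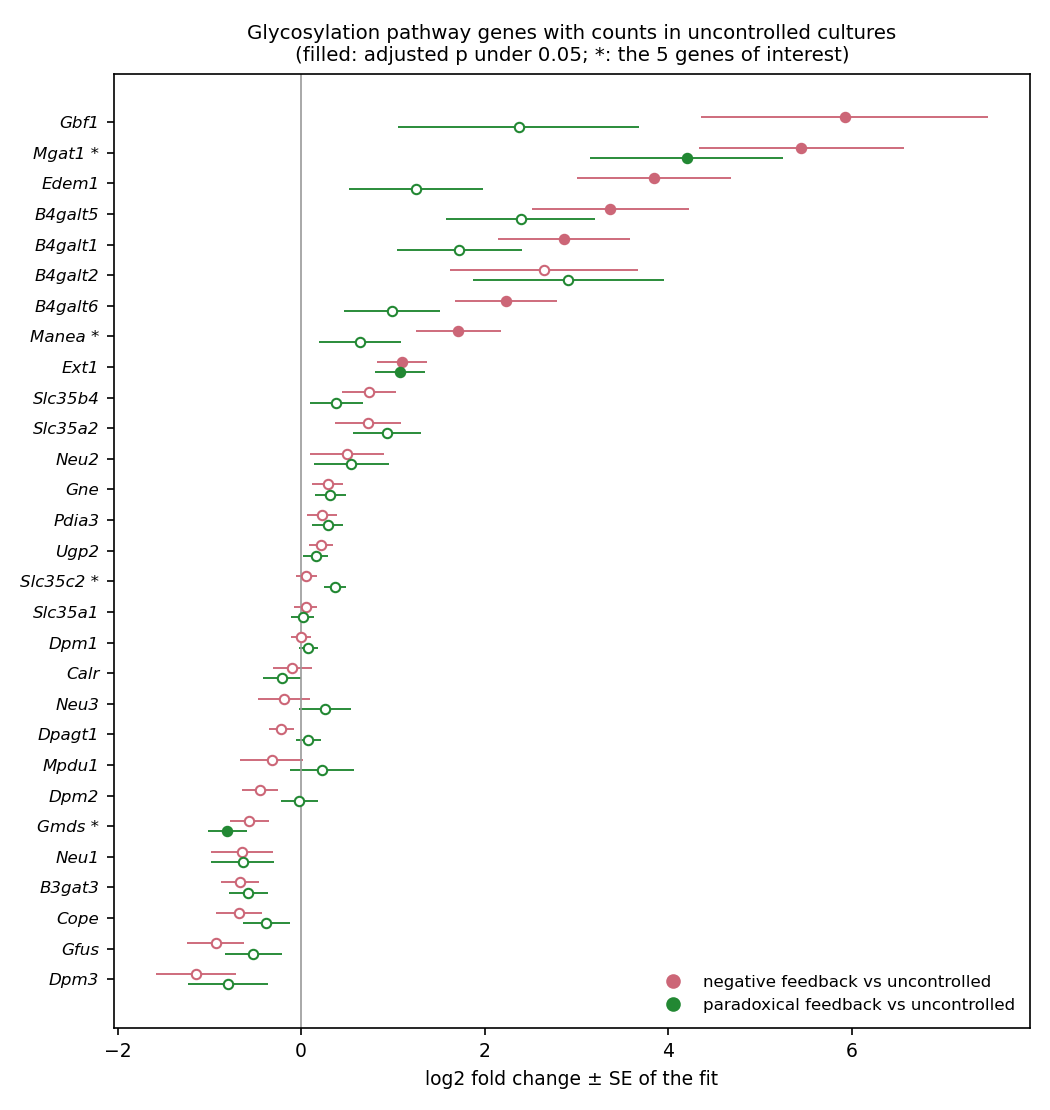
Log2 fold change with the standard error of the fit for 29 pathway genes with counts in uncontrolled cultures, under negative (red) and paradoxical (green) feedback against uncontrolled growth, ordered by the former. Filled points passed an adjusted p of 0.05, and asterisks mark Mgat1, Manea, Slc35c2 and Gmds. The 5 tested genes at 0 in uncontrolled cultures, Slc35a3 among them, are not drawn. Filled red points lie between Gbf1 (5.92) and Ext1 (1.10), where B4galt2 (2.65) is open, and Gmds is the only filled point below 0.

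Early steps in the endoplasmic reticulum showed no edgeR call among 5 tested genes of lipid-linked oligosaccharide assembly. The value farthest from 0 was that of Dpm3, a small subunit of the dolichol-phosphate-mannose synthase with shared reads, named after its values were seen. It was at -1.15 ± 0.44 under negative (edgeR adjusted p = 0.0940) and -0.80 ± 0.44 under paradoxical feedback (edgeR adjusted p = 0.260), and for the former it was called lower in 7 of 31 alternatives, DESeq2 and limma-voom among them. Dpagt1, the enzyme that starts the lipid-linked chain, with shared reads, was at -0.22 ± 0.13 and 0.08 ± 0.14 for negative and paradoxical feedback. Dpm1 and Dpm2, subunits of the dolichol-phosphate-mannose synthase, were at -0.001 ± 0.11 and 0.08 ± 0.11 and at -0.45 ± 0.20 and -0.02 ± 0.20, in the same order. Mpdu1, needed to use that mannose donor and with shared reads, was at -0.32 ± 0.34 and 0.23 ± 0.35. Of 4 genes of trimming and lectin quality control, Edem1, a lectin of endoplasmic reticulum-associated degradation, rose under negative feedback by 3.85 ± 0.84 (edgeR adjusted p = 0.0236). Its levels were 1.65 to 1.79 CPM in the first 2 cultures and 24.3 to 49.2 CPM in the other 5. The lectin chaperone Calr (-0.09 ± 0.21 and -0.21 ± 0.21) and its partner Pdia3 (0.23 ± 0.17 and 0.29 ± 0.17) were not called. The target of Canx, a related lectin with shared reads, was above 0 in 4 of 19 libraries, all of them among negative feedback cultures 3 to 7.

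In the remaining lists, Ext1, a polymerase of heparan sulfate chains, was the only other pathway gene called under paradoxical feedback. It rose by 1.08 ± 0.27 (edgeR adjusted p = 0.0296) and, under negative feedback, by 1.10 ± 0.27 (edgeR adjusted p = 0.0253), from 24.3 ± 1.04 CPM in uncontrolled cultures (SD, n = 4) to 51.4 ± 8.46 and 52.0 ± 20.02 CPM (SD, n = 7). Its call under paradoxical feedback was lost without any 1 of the uncontrolled cultures or without paradoxical feedback culture 1, 5 or 6. Those fits called 127 to 644 and 1019 to 1243 targets in all, against 1835. B3gat3, which builds the linker of proteoglycan chains, was at -0.66 ± 0.21 and -0.57 ± 0.21 without a call (edgeR adjusted p = 0.0528 and 0.0994). Gbf1, an exchange factor for Arf proteins of the early Golgi with shared reads, rose under negative feedback by 5.92 ± 1.56 (edgeR adjusted p = 0.0291), from 0.130 ± 0.152 CPM (SD, n = 4) to 4.24 to 19.3 CPM in cultures 3 to 7. The coatomer subunit Cope was at -0.68 ± 0.25 and -0.38 ± 0.25 without a call. None of 3 sialidases was called, Neu1 of the lysosome being at -0.64 ± 0.34 and -0.63 ± 0.34 and Neu2 of the cytosol at 0.50 ± 0.41 and 0.55 ± 0.41. Neu3 of the cell membrane, with shared reads, was at -0.19 ± 0.28 and 0.26 ± 0.29.

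Named targets that did not pass the filter were Mgat3, St6gal1, Fut9 and Slc35c1, which are listed here because they failed it. Mgat3, the bisecting N-acetylglucosaminyltransferase, had 12 counts in all 19 libraries together, the sialyltransferase St6gal1 had 1, and the fucosyltransferase Fut9 had 4. The target of Slc35c1, the main GDP-fucose transporter of the Golgi, had 0, which allows up to 3 counts in each library. CHO cells are known to lack the activities of Mgat3 and St6gal1. For all 4, predicted transcripts of the same genes could not be matched by symbol and may hold further reads.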

How the data were processed

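Polyadenylated RNA was sequenced from 19 libraries, and per the submitters' processing notes reads were trimmed with Trim Galore and quantified with kallisto, without versions. Index build and annotation, not given in the sources used here, remain unknown. Each deposited file holds an estimated count and a TPM value for each of 46718 transcript targets, per the file headers. An estimated count is the number of reads that the quantifier assigned to a target and need not be whole. Targets counted as whole were so within 1e-06. Symbols came from a gene table of assembly CriGri-PICRH-1.0 by exact accession, used for names only, and matched 333 protein-coding targets. No sequences or coordinates are printed.

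Estimated counts were rounded, filtered with filterByExpr, scaled by TMM and tested in R 4.3.3 with edgeR 4.0.16 (glmQLFit, glmQLFTest), with all 19 libraries and 1 coefficient per group. The standard error was the log2 fold change divided by the square root of F. Adjustment was by Benjamini-Hochberg over 28555 targets. The parental library was not tested. Log2 CPM used a prior count of 2. The fit was tested on simulated data with known changes, of which it recovered a part. No 2 libraries agreed within sampling noise. The genes and lists were chosen with earlier results of these data known. Named pathway genes are the tested members of lists with up to 4, otherwise the 4 with the highest mean CPM, and every called one. Alternatives used DESeq2 1.42.0, limma 3.58.1, TPM with pseudocounts of 0.5 and 0.1, other scalings and filters, a replicate block, 2 corrections for transcript length and left-out cultures.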

Additional observations from a re-analysis of the deposited data

How the results depend on the processing

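Each comparison was repeated under 31 alternatives, of which 1 (the cultures of the replicate block without the block) was added after seeing the results of the others. The fits without negative feedback cultures 3 to 7 together or 1 and 2 together also rest on a division seen in these data. Of 5 genes, negative feedback against uncontrolled growth gave 3 calls, and 0 when other groups were left out of the fit, with the replicate block, with the same cultures unblocked, with the share on short targets as a covariate and without negative feedback cultures 3 to 7. In these fits 10, 0, 0, 5 and 13 targets were called in all, against 2787, and the block and its cultures unblocked tested 3 of the 5 genes, so a 0 there is not particular to them. Leaving out each culture in turn gave 0 to 4, while 7 to 6938 targets were called in all. Paradoxical feedback against uncontrolled growth gave 2 calls, 0 with the replicate block, 1 by limma on log2(TPM + 0.5), and 3 by DESeq2, with only the groups compared, without negative feedback cultures 3 to 7 and without cultures 1 and 2, where Slc35c2 was added. In that order, 6.43, 2.21, 7.68, 19, 22.4, 18 and 20% of all targets were called. This comparison gave 0 to 3 calls when each culture was left out, while 127 to 3204 targets were called in all. The direct comparison gave 0 calls, 1 by DESeq2, 2 without negative feedback cultures 3 to 7, 2 without cultures 1 and 2, and 0 to 1 when each culture was left out. The shares of all targets called were 0.270, 7.17, 8.99, 20.9 and 0 to 3.47%. Over these alternatives Mgat1 was called in 22 of 29 fits for negative and 25 of 31 for paradoxical feedback, Manea in 16 of 31 and Slc35a3 in 8 of 29 for negative feedback, and Gmds in 23 of 31 for paradoxical feedback. Fits with fewer than 31 had Mgat1 or Slc35a3 removed by the filter.

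Directions changed for negative feedback against uncontrolled growth in Slc35c2 (-0.00657 by library size alone, -0.0196 with the replicate block, -0.0109 with the same cultures unblocked, -0.0673 with the share on short targets as a covariate, -0.15 without cultures 3 to 7) and in Manea (-0.0867 without cultures 3 to 7). They changed for paradoxical feedback against uncontrolled growth in Manea (-0.15 with the covariate). In the direct comparison they changed with the covariate for Mgat1 (0.95) and Slc35a3 (1.26), without cultures 3 to 7 for Mgat1 (3.12), Manea (0.74) and Slc35a3 (5.97, fitted over cultures at 0 and no measure of size), and without cultures 1 and 2 for Gmds (0.00779). The cause of these changes was not tested. Fits that leave out cultures compare both fewer and different ones. TPM moved the median log2 fold change of all targets by 0.12 and 0.19 under negative feedback, by pseudocount. Deviations of same-numbered cultures correlated at -0.156 to 0.107 and passed 0.1 in 0 of 4, 0 of 4 and 1 of 7 pairs of the 3 comparisons, so the numbers were not taken as pairs. For negative feedback the block's cultures gave 0 calls with and without the block. For paradoxical feedback they gave 2 without and 0 with it, while calls over all targets went from 3437 to 463 of 20948, and the direct comparison had 0 in both. At 0 to 4.18 estimated counts in uncontrolled cultures, depth limits the precision of Mgat1, and a count of 0 that of Slc35a3.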
